A study of Homo sapiens with 9 samples.

Results

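CD24, CD44, EPCAM, PROM1 and ALCAM encode cell surface proteins that are used to pick out stem-like or tumour-initiating cells of colorectal cancers. All probes annotated to these 5 genes were taken from a human expression array, which gave 9 of 48803 probes and 5 of 18665 named genes. CD24 had 2 probes, CD44 had 3, EPCAM had 2, and PROM1 and ALCAM had 1 each. CD24 and CD44 were selected on their measured fall in the comparison of NXF1 siRNA with control siRNA, so their values in any comparison that holds the NXF1 arrays are given as a description with no test. Their comparison of GANP siRNA with control siRNA used the same control arrays, so its p-values are not separate from that selection. EPCAM, PROM1 and ALCAM were added as surface markers of the same use. They and the gene lists used below were chosen with earlier results of these data known.

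The study asked how the cytoplasmic mRNA of HCT116 cells, an established human colorectal carcinoma line, depends on GANP and NXF1. NXF1 is the receptor that carries bulk mRNA through the nuclear pore, and GANP, encoded by MCM3AP, is a nuclear scaffold protein that acts with it. Cells were transfected with a control siRNA, a GANP siRNA or an NXF1 siRNA. Cytoplasmic RNA, released by permeabilising the plasma membrane with digitonin, was collected 72 h later and hybridised to Illumina HumanWG-6 v3 arrays. Each group had 3 arrays, 1 from each of 3 depletion experiments that the study's methods describe as independent, and the labels number these experiments. All groups were the same cell line and all received an siRNA. The control siRNA was the GANP siRNA with a pair of bases changed, each target was depleted with a single siRNA sequence in the methods, and there was no array of untreated cells. No rescue by a resistant cDNA was measured on the arrays.

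CD44 is a receptor for hyaluronan, a sugar polymer of the extracellular matrix, and is made in many splice forms. CD24 is a small, heavily glycosylated protein held in the outer membrane by a glycosylphosphatidylinositol (GPI) anchor. EPCAM joins epithelial cells to each other and can release an intracellular fragment that acts in the nucleus. PROM1, also called CD133, sits in membrane protrusions, and ALCAM, also called CD166, is an immunoglobulin-type adhesion receptor. In colorectal tumours, combinations of these proteins serve to sort cells before tests of tumour initiation.

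Signals are given as log2 of the background-corrected array signal, on which a difference of 1 is a doubling. A log2 fold change is the mean of the first group minus the mean of the second, and its standard error (SE) comes from 1 limma fit of all 9 arrays. A probe was tested if its mean log2 signal was above 6.36, the median of all probes, and this kept 24401 probes, all 9 of the probes described here among them. A change was called where the Benjamini-Hochberg adjusted p over all kept probes was under 0.05 and the log2 fold change was over 0.25 or under -0.25. The arrays received equal amounts of labelled RNA and the deposited signals had been quantile normalised, so a rise or fall is relative to the other transcripts on the array. In RNA from a whole culture, fewer cells that express a gene cannot be told apart from less RNA of that gene per cell. Probes differ in how they bind, so levels were not compared between probes.

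The targeted gene was checked first. MCM3AP gave log2 signals of 9.59, 9.80 and 9.88 on the control arrays, 8.59, 8.80 and 8.76 on the GANP siRNA arrays and 9.65, 9.70 and 9.82 on the NXF1 siRNA arrays. All GANP siRNA arrays lay below all others, and the fall against control was 1.04 (SE 0.0971, limma adjusted p = 6.35e-05, n = 3 per group). No probe carried the symbol NXF1 in the annotation used, so the depletion of NXF1 was not checked here. Of the 12 colon epithelium markers, 7 were above the filter, with KRT8, KRT18, KRT19, CDH1 and ELF3 among them, whereas CEACAM5, VIL1, LGALS4, CDH17 and CDX1 were not. Of the listed fibroblast, leukocyte and endothelial markers, 3 of 10, 4 of 11 and 2 of 7 were above the filter. These were COL1A1, DCN and PDGFRA for fibroblasts, MS4A1, CD79A, LYZ and CD14 for leukocytes, and PECAM1 and VWF for endothelium. PTPRC, CD3E, COL1A2 and COL3A1 were among those below it. The filter is the median of all probes, so passing it does not show that a gene was expressed. On the control arrays DCN read 6.36 to 6.57 and PDGFRA, the highest of these markers, 7.28 to 7.52, whereas KRT18 read 14.96 to 15.09. None of the fibroblast, leukocyte and endothelial markers above the filter was called in any comparison, where 8.07 to 19.4% of all kept probes were called.

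Both CD24 probes were lower after NXF1 siRNA than after control siRNA, by -1.43 and -0.85 on the log2 scale, and the differences after GANP siRNA were -0.46 and -0.23. For probe ILMN_2060413, the log2 signals in experiments 1, 2 and 3 were 10.30, 10.63 and 10.40 with control siRNA. The same probe read 9.89, 10.27 and 9.80 with GANP siRNA. With NXF1 siRNA it read 8.97, 9.24 and 8.84. All NXF1 siRNA arrays lay below all GANP siRNA arrays, and all GANP siRNA arrays lay below all control arrays, although the highest GANP siRNA value came close to the lowest control value.

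On the scale of the deposited signals, ILMN_2060413 read 1277 to 1596 on the control arrays, 906 to 1249 on the GANP siRNA arrays and 472 to 618 on the NXF1 siRNA arrays. The mean difference of NXF1 siRNA from control was -1.43 (SE 0.135), which left 37.2% of the control signal. Among the 24401 kept probes it ranked 3 from the lowest in that comparison, which is the contrast that chose the gene. The difference of GANP siRNA from control was -0.46 (SE 0.135, 95% confidence interval -0.75 to -0.17), or 72.9% of the control signal. Its limma adjusted p was 0.056, so it was not called, but in a fit with a replicate block for the experiments the adjusted p was 0.00242 and the fall passed the threshold. The control arrays also entered the contrast for which CD24 was chosen, so neither p-value is separate from that choice. The GANP siRNA array was below the control array in 3 of 3 experiments, by differences of -0.41, -0.36 and -0.60.

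The other CD24 probe, ILMN_1805519, had a lower signal and the same order of groups. It read 7.34, 7.69 and 7.49 with control siRNA, 7.15, 7.43 and 7.24 with GANP siRNA and 6.83, 6.71 and 6.44 with NXF1 siRNA. The NXF1 siRNA arrays were again below all others, whereas the GANP siRNA and control arrays overlapped. The difference from control was -0.85 (SE 0.12) after NXF1 siRNA, or 55.5% of the control signal. After GANP siRNA it was -0.23 (SE 0.12, 95% confidence interval -0.49 to 0.03, limma adjusted p = 0.3). Over the 9 arrays the CD24 probes followed each other with a Pearson r of 0.967, a description in which the 3 groups set most of the spread. CD24 has near-identical processed copies elsewhere in the genome, and whether these probes separate them was not tested because the probe sequences were not used here.

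**Figure D1:**
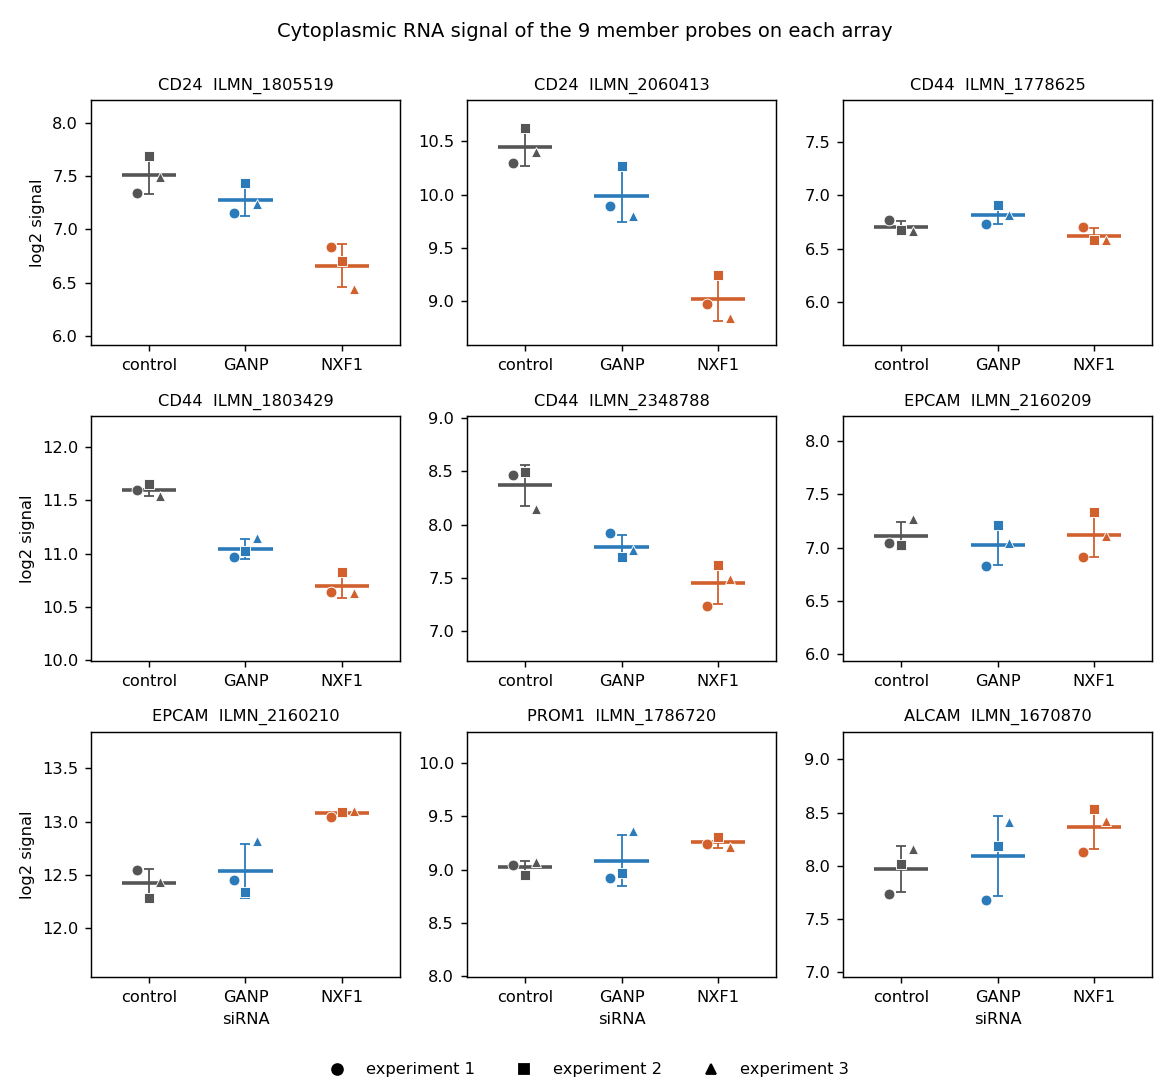
Log2 signal (vertical axis, a window of the same height in each panel) of the 9 probes of CD24, CD44, EPCAM, PROM1 and ALCAM on each array, by siRNA (horizontal axis). Points are single arrays with a shape for each experiment, the thick line is the group mean and the bar is 1 SD (n = 3). Both CD24 probes and CD44 probes ILMN_1803429 and ILMN_2348788 step down from control to GANP siRNA to NXF1 siRNA, and EPCAM probe ILMN_2160210 is high on the NXF1 siRNA arrays, at 13.04 to 13.10.

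CD44 fell after depletion of GANP, and was lower still after depletion of NXF1, at 2 of its 3 probes. Probe ILMN_1803429 read 11.60, 11.65 and 11.54 with control siRNA in experiments 1, 2 and 3. With GANP siRNA it read 10.97, 11.02 and 11.15. With NXF1 siRNA it read 10.64, 10.83 and 10.63. The 3 groups did not overlap, and the spread within each was narrow, with SDs of 0.0574, 0.0929 and 0.115 (n = 3 each).

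The CD44 fall after GANP siRNA at ILMN_1803429 was -0.55 (SE 0.0878, 95% confidence interval -0.74 to -0.36), or 68.2% of the control signal, with a limma adjusted p of 0.00181. The difference after NXF1 siRNA was -0.90 (SE 0.0878), or 53.7% of the control signal. The GANP siRNA arrays were thus 0.35 above the NXF1 siRNA arrays on the log2 scale. In the deposited signals this was 2987 to 3233 with control siRNA, 2019 to 2283 with GANP siRNA and 1604 to 1835 with NXF1 siRNA. The control arrays that gave the GANP comparison also entered the contrast for which CD44 was chosen, so the 2 falls do not rest on separate controls.

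Probe ILMN_2348788, annotated to another CD44 transcript, gave falls of much the same size from a lower signal. It read 8.47, 8.50 and 8.15 with control siRNA, 7.92, 7.70 and 7.77 with GANP siRNA and 7.24, 7.62 and 7.49 with NXF1 siRNA. No array of 1 group reached another group, but the lowest GANP siRNA array and the highest NXF1 siRNA array lay closer to each other than the SDs of those groups, 0.113 and 0.194. The fall after GANP siRNA was -0.58 (SE 0.118, 95% confidence interval -0.83 to -0.33, limma adjusted p = 0.00847), and the difference after NXF1 siRNA was -0.92 (SE 0.118). These left 67% and 52.8% of the control signal. The probes ILMN_1803429 and ILMN_2348788 followed each other over the 9 arrays with r = 0.952.

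The third CD44 probe, ILMN_1778625, did not show these differences from control. It read 6.77, 6.68 and 6.67 with control siRNA, 6.73, 6.91 and 6.81 with GANP siRNA and 6.71, 6.58 and 6.58 with NXF1 siRNA. Its values overlapped between the control arrays and each depletion. The GANP siRNA arrays lay above the NXF1 siRNA arrays, by 0.19 on the log2 scale, but the closest values were 6.73 and 6.71. The difference after GANP siRNA was 0.11 (SE 0.0826, 95% confidence interval -0.07 to 0.29, limma adjusted p = 0.523), an interval that lies above the falls of the other CD44 probes, and after NXF1 siRNA it was -0.08 (SE 0.0826). Its signal was low, between 62.1 and 70.2% of all probes lying below it on an array, and its r with the other CD44 probes was 0.232 and 0.126. The 3 CD44 probes are annotated to 3 different RefSeq transcripts, and whether the disagreement goes with splice form or with low signal was not tested.

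**Figure D2:**
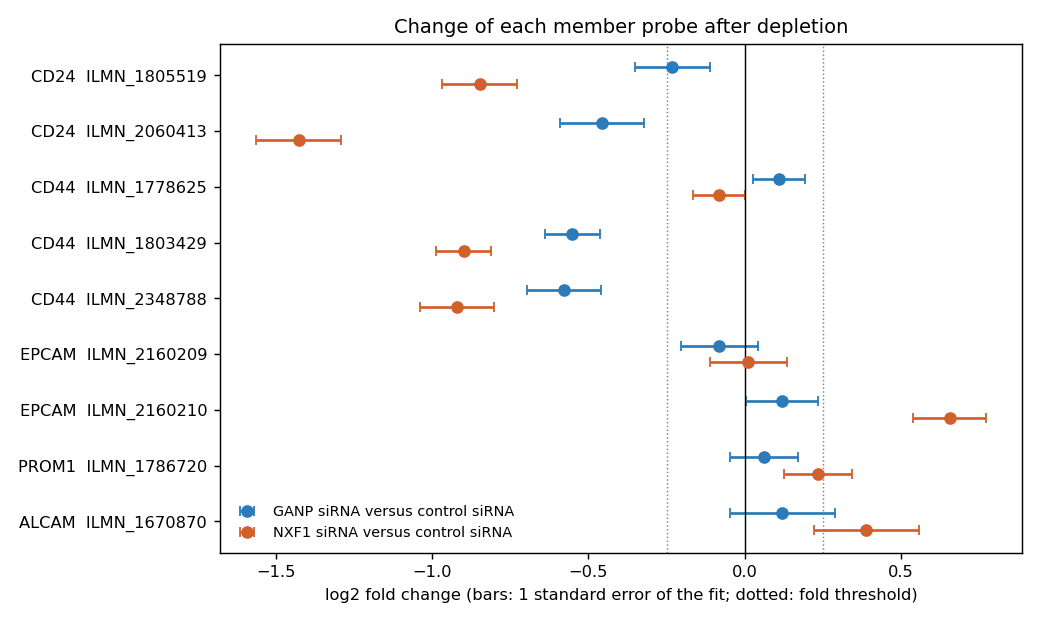
Log2 fold change against control siRNA (horizontal axis) of each probe of the 5 genes (vertical axis) after GANP siRNA and after NXF1 siRNA. Points are differences of group means with n = 3 arrays each, bars are 1 SE of the limma fit, and dotted lines mark the fold threshold of 0.25 in either direction. CD24 probe ILMN_2060413 has the lowest value of the plot, -1.43 after NXF1 siRNA, and EPCAM probe ILMN_2160210 the highest, 0.65 after NXF1 siRNA.

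EPCAM rose after NXF1 siRNA at probe ILMN_2160210 and was close to control after GANP siRNA. It read 12.55, 12.28 and 12.43 in log2 signal on the control arrays of experiments 1, 2 and 3. The GANP siRNA arrays gave 12.45, 12.34 and 12.82. The NXF1 siRNA arrays gave 13.04, 13.09 and 13.10. Every NXF1 siRNA array was above every other array, whereas the control and GANP siRNA arrays overlapped, and the GANP siRNA array of experiment 3 stood above the other 2 of its group.

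The EPCAM rise after NXF1 siRNA was 0.65 (SE 0.116, 95% confidence interval 0.41 to 0.91, limma adjusted p = 0.00136), or 157% of the control signal. The deposited signals were 4979 to 5992 with control siRNA, 5197 to 7263 with GANP siRNA and 8418 to 8767 with NXF1 siRNA. The difference after GANP siRNA was 0.12 (SE 0.116, 95% confidence interval -0.13 to 0.37, limma adjusted p = 0.647). The difference between the depletions was itself past the threshold, with the GANP siRNA arrays lower than the NXF1 siRNA arrays by -0.54 (SE 0.116, limma adjusted p = 0.00764). The NXF1 siRNA array was above the control array in 3 of 3 experiments, by 0.49, 0.81 and 0.66.

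The second EPCAM probe, ILMN_2160209, read 7.05, 7.02 and 7.26 with control siRNA, 6.83, 7.21 and 7.04 with GANP siRNA and 6.92, 7.34 and 7.11 with NXF1 siRNA. All 3 groups overlapped. The difference after NXF1 siRNA was 0.01 (SE 0.123, 95% confidence interval -0.25 to 0.28, limma adjusted p = 0.974), so its interval does not reach the estimate of the other EPCAM probe. Between 68.9 and 74.8% of all probes lay below it on an array, against 97.2 to 98.4% for ILMN_2160210. The rise of EPCAM therefore rests on 1 of its 2 probes, and the part of low signal in the difference was not tested.

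Of the colon epithelium markers, 4 of 7 tested genes, CDH1, KRT8, KRT18 and ELF3, rose after NXF1 siRNA and 0 fell, where over all genes tested 11% rose and 13.2% fell. KRT8 lost its call without the control array of experiment 2 or 3 or the NXF1 siRNA array of experiment 1, at adjusted p from 0.0693 to 0.116, and KRT18 without the control array of experiment 2, at 0.0701. The summed deposited signal of all 12 listed genes was 59044 to 61574 on the control arrays, 60105 to 62778 on the GANP siRNA arrays and 71282 to 71644 on the NXF1 siRNA arrays. This linear sum is weighted to the brightest genes. KRT18 read 14.96 to 15.09 in log2 signal on the control arrays and 15.30 to 15.35 on the NXF1 siRNA arrays. The part of the shift in these markers in the EPCAM rise was not tested.

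PROM1 differed little between the groups. Its probe ILMN_1786720 read 9.04, 8.95 and 9.07 with control siRNA, 8.92, 8.96 and 9.36 with GANP siRNA and 9.24, 9.31 and 9.21 with NXF1 siRNA. The NXF1 siRNA arrays lay above the control arrays with no overlap, and the GANP siRNA array of experiment 3 lay above them all. The difference after NXF1 siRNA was 0.23 (SE 0.108, 95% confidence interval 0.002 to 0.47) and was not called (limma adjusted p = 0.161), and after GANP siRNA it was 0.06 (SE 0.108, 95% confidence interval -0.17 to 0.29, limma adjusted p = 0.826). GANP siRNA and NXF1 siRNA differed by -0.17 (SE 0.108, limma adjusted p = 0.354). Without the GANP siRNA array of experiment 3 this last difference was -0.31 and was called, with an adjusted p of 0.0456.

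ALCAM had the largest SE of the 9 probes. Probe ILMN_1670870 read 7.74, 8.02 and 8.16 with control siRNA, 7.68, 8.19 and 8.41 with GANP siRNA and 8.13, 8.53 and 8.42 with NXF1 siRNA. Experiment 1 gave the lowest value of every group, and the groups overlapped. Against the control array of the same experiment, the NXF1 siRNA array was higher in 3 of 3 experiments, by 0.39, 0.51 and 0.26. The mean difference of 0.39 (SE 0.167, 95% confidence interval 0.03 to 0.75) was not called, with a limma adjusted p of 0.131. In the fit with the replicate block its adjusted p was 0.00746 and it was called. After GANP siRNA the difference was 0.12 (SE 0.167, 95% confidence interval -0.24 to 0.48, limma adjusted p = 0.772), with 1 of 3 experiments going down.

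**Figure D3:**
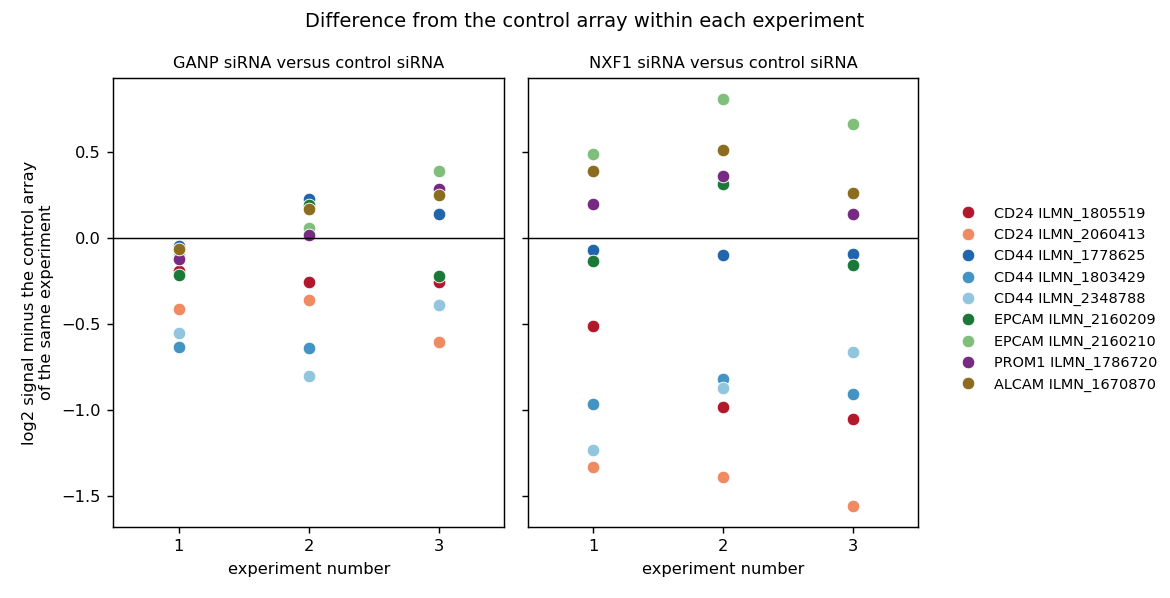
Log2 signal of each probe of the 5 genes minus that of the control array of the same experiment (vertical axis), by experiment number (horizontal axis), for GANP siRNA (left) and NXF1 siRNA (right). Each point is 1 pair of arrays. After NXF1 siRNA, CD24 probe ILMN_2060413 lies at -1.33, -1.39 and -1.56 and EPCAM probe ILMN_2160210 at 0.49, 0.81 and 0.66 in experiments 1, 2 and 3.

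Counted together, 2 of 9 probes were called down after GANP siRNA, both of CD44, and 0 of 9 were called up, while 8.07% of all kept probes were called, 3.91% down and 4.16% up. CD24 and CD44 were chosen in a contrast that held the same control arrays, so this count is a description only. After NXF1 siRNA, 1 of the 4 tested probes of EPCAM, PROM1 and ALCAM was called up and 0 down, against 19.4% of all kept probes called, 9.19% up and 10.3% down. Between GANP siRNA and NXF1 siRNA, 1 of these 4 probes was called, with the GANP siRNA arrays lower, where 14% of all kept probes were called, 6.2% in that direction and 7.8% in the other. Counted by gene, 7.4% were lower and 10.4% higher with GANP siRNA. A count of 1 in 4 is too small to set against these shares. The median log2 fold change of all kept probes was within 0.01 of 0 in each comparison.

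The list of genes that make, degrade or bind hyaluronan, cut CD44, tie it to the cytoskeleton or set its splicing had 26 tested genes of 34. After GANP siRNA, 0 rose and 1 fell, with a median log2 fold change of 0.09, where over all genes tested 5.44% rose, 4.76% fell and the median was 0.00. The gene that fell was HAS3, a hyaluronan synthase, by 0.50 on the log2 scale (SE 0.12, limma adjusted p = 0.0201). This call was lost without the control array of experiment 1, the GANP siRNA array of experiment 1 or that of experiment 2, with adjusted p from 0.0578 to 0.0767, and 1 of the 3 HAS3 probes was not called. The replicate block, which raised the calls over all kept probes after GANP siRNA, called 2 genes of this list.

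After NXF1 siRNA, 4 genes of the CD44 list rose and 2 fell, with a median of 0.05, where over all genes 11% rose and 13.2% fell. NF2, which encodes merlin, a relative of the ERM proteins that bind the CD44 tail, rose by 0.59 (SE 0.118, limma adjusted p = 0.00301), and 1 of its 3 probes was not called. The sheddases ADAM10 and ADAM17, which cut surface proteins, rose by 0.47 and 0.42 (adjusted p = 0.0197 and 0.0314), but these calls were not stable. ADAM10 lost its call without the control array of experiment 1 or the NXF1 siRNA array of experiment 2 or 3, at adjusted p up to 0.0829. ADAM17 lost its call without any 1 control array or the NXF1 siRNA array of experiment 2 or 3, at adjusted p up to 0.146, and its other probes were not called. MMP9, a secreted protease that CD44 can hold at the cell surface, fell by 0.45 (SE 0.0912, limma adjusted p = 0.00311). The splicing factor ESRP1, which favours the epithelial CD44 splice forms, had values of 0.15 and -0.01 after GANP and NXF1 siRNA and was not called in either.

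The list of proteins reported to bind, cut or resemble CD24, EPCAM, PROM1 or ALCAM had 19 tested genes of 25. After GANP siRNA, 2 rose and 1 fell, and after NXF1 siRNA 6 rose and 3 fell, with medians of 0.07 and 0.06. Over all genes tested, 5.44% rose and 4.76% fell after GANP siRNA, and 11% rose and 13.2% fell after NXF1 siRNA. CLDN7, a tight junction protein that binds EPCAM, read 9.01, 8.98 and 9.33 with control siRNA, 9.33, 9.17 and 9.50 with GANP siRNA and 9.58, 9.64 and 9.65 with NXF1 siRNA. Its NXF1 siRNA arrays lay above all others, and its rise was 0.51 (SE 0.109, limma adjusted p = 0.00421).

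PROM2, the closest relative of PROM1, had a different order of groups. It read 6.54, 6.52 and 6.87 with control siRNA, 7.20, 6.99 and 7.18 with GANP siRNA and 6.26, 6.37 and 6.56 with NXF1 siRNA. It was highest on the GANP siRNA arrays, with a rise of 0.48 over control (SE 0.112, limma adjusted p = 0.018) that was lost without the control array of experiment 1 or 2 or the GANP siRNA array of experiment 1 or 3, at adjusted p from 0.0605 to 0.0901. The GANP siRNA arrays exceeded the NXF1 siRNA arrays by 0.73 (adjusted p = 0.000879). FUT4, a fucosyltransferase, fell after both, by 0.52 and 0.48 (adjusted p = 0.00622 and 0.00378), at 1 of its probes only. SDCBP, which encodes the adaptor syntenin, rose by 0.58 after GANP siRNA (adjusted p = 0.000721). Its NXF1 siRNA arrays, at 11.77 to 11.88, also lay above its control arrays, at 11.36 to 11.49. PIK3R1 and NDRG2 fell after NXF1 siRNA at their brightest probes, by 0.69 and 0.62, but their other tested probes were not called.

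Other markers of intestinal stem cells or tumour-initiating colorectal cells moved in both directions. Of 34 listed, 24 were tested, of which 1 rose and 2 fell after GANP siRNA and 6 rose and 5 fell after NXF1 siRNA. That was 4.17% up and 8.33% down after GANP siRNA, against 5.44% and 4.76% of all genes tested. For NXF1 siRNA it was 25% up and 20.8% down, against 11% and 13.2%. With the replicate block, 5 genes were called after GANP siRNA in place of 3, but the block also raised the calls over all kept probes. NES, which encodes the intermediate filament nestin, read 8.03, 8.18 and 8.27 with control siRNA, 7.09, 7.24 and 7.17 with GANP siRNA and 7.43, 7.22 and 7.28 with NXF1 siRNA. Both depletions lay below control on every array, with falls of 0.99 and 0.85 (SE 0.091 each, limma adjusted p = 6.14e-05 and 3.52e-05). CDCA7 fell by 0.49 after GANP siRNA (adjusted p = 0.00268), and its NXF1 siRNA arrays, at 12.83 to 12.94, also lay below its control arrays, at 13.17 to 13.32. MSI2, an RNA-binding protein of stem and progenitor cells, rose by 0.72 and 0.66 (adjusted p = 0.000311 and 0.000153) at its brightest probe. Its other probes, ILMN_1804448 and ILMN_2302075, were not called after GANP siRNA (-0.0957 and 0.323, limma adjusted p = 0.683 and 0.0944). After NXF1 siRNA, ILMN_1804448 was called (0.393, adjusted p = 0.0145) and ILMN_2302075 was not (0.259, adjusted p = 0.125).

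TSPAN6, a tetraspanin, and ITGB1, the integrin beta 1 chain, rose after NXF1 siRNA by 0.83 and 0.64 (limma adjusted p = 0.000105 and 0.00376), and 1 of the 3 ITGB1 probes was not called. Among 6 tested pluripotency factors of 16, MYC fell by 0.47 after GANP siRNA (adjusted p = 0.00175), and KLF4 and TFCP2L1 rose by 0.68 and 0.45 after NXF1 siRNA (adjusted p = 0.000145 and 0.00553), KLF4 at 1 of its 2 probes. The MYC signal on the NXF1 siRNA arrays, 13.15 to 13.22, was also below that on the control arrays, 13.38 to 13.44, but was not called. Of 10 tested colon differentiation markers of 31, 0 were called after GANP siRNA and 1, KLF4, which is on both lists, after NXF1 siRNA. The pluripotency factors POU5F1, LIN28B and ESRRB had signals close to the filter. So did the differentiation markers KRT20, MUC2, MUC13, CA4, ALPI and GPA33. These low signals ran from 6.15 (ALPI) to 6.82 (MUC13), so the lack of a call does not show expressed and unchanged genes. The differentiation markers CDX2, CA2 and CEACAM1 were brighter and were not called. Over all genes tested, 5.44% rose and 4.76% fell after GANP siRNA, and 11% rose and 13.2% fell after NXF1 siRNA. Lists of 6 and 10 tested genes are too small to set against these shares. The replicate block called 2 genes of that list after NXF1 siRNA.

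CD24 belongs to the GPI-anchored surface proteins, of which 44 others were listed and 29 tested. After GANP siRNA 0 were called (2 with the replicate block), where over all genes 5.44% rose and 4.76% fell. After NXF1 siRNA 7 rose and 1 fell, where over all genes 11% rose and 13.2% fell. PLAUR, the urokinase receptor, read 8.26, 8.29 and 8.35 with control siRNA, 8.44, 8.39 and 8.56 with GANP siRNA and 9.27, 9.36 and 9.20 with NXF1 siRNA. The NXF1 siRNA arrays stood well clear of the others, and the rise was 0.97 (SE 0.0825, limma adjusted p = 6.65e-06), with all 3 of its probes called. CD55, which protects cells from complement, and NT5E, the ecto-enzyme CD73, rose by 0.81 and 0.65 (adjusted p = 0.000519 and 8.27e-05). FOLR1, a folate receptor, fell by 0.61 (SE 0.127, adjusted p = 0.00384).

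ALCAM belongs to the adhesion receptors, of which 27 of 36 other listed genes were tested. After GANP siRNA 2 rose and 0 fell, and after NXF1 siRNA 5 rose and 0 fell, with medians of 0.08 and 0.14. Over all genes tested, 5.44% rose and 4.76% fell after GANP siRNA, and 11% rose and 13.2% fell after NXF1 siRNA. ESAM, an endothelial-type adhesion molecule, and NECTIN3, an adherens junction receptor, rose by 0.79 and 0.74 after NXF1 siRNA (limma adjusted p = 0.000101 and 0.006). The syndecan SDC4 rose by 0.56 (adjusted p = 0.00801). The rises of NECTIN2 and ESAM after GANP siRNA, 0.36 and 0.39, were not stable. NECTIN2 lost its call without any 1 control or GANP siRNA array, at adjusted p up to 0.123, and ESAM without either array of experiment 2 or 3, at adjusted p up to 0.113.

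Of 19 tested epithelial and mesenchymal genes of 29, 1 rose and 0 fell after GANP siRNA, where the replicate block called 2, and 4 rose and 2 fell after NXF1 siRNA. The shares over all genes tested were 5.44% up and 4.76% down after GANP siRNA and 11% up and 13.2% down after NXF1 siRNA. CDH1, the epithelial adhesion protein E-cadherin, read 7.63, 8.03 and 8.23 with control siRNA, 8.15, 8.25 and 9.08 with GANP siRNA and 8.78, 8.63 and 9.05 with NXF1 siRNA. VIM, the mesenchymal intermediate filament vimentin, read 9.27, 9.05 and 9.13 with control siRNA, 9.33, 8.98 and 9.02 with GANP siRNA and 8.63, 8.39 and 8.34 with NXF1 siRNA. NXF1 siRNA and control arrays did not overlap for either gene, while the GANP siRNA arrays overlapped with control for both.

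Against control, CDH1 rose by 0.86 (SE 0.211, limma adjusted p = 0.0107) and VIM fell by 0.69 (SE 0.112, adjusted p = 0.00068) after NXF1 siRNA. SNAI2, a repressor of CDH1, rose after both depletions, by 0.37 and 0.50 (adjusted p = 0.00925 and 0.000495), but its other probe was not called after GANP siRNA (0.24, adjusted p = 0.115). The SNAI2 control signals, 6.35 to 6.39, lay at the filter. S100A4, a calcium-binding protein common in mesenchymal cells, fell by 0.54 after NXF1 siRNA (adjusted p = 0.0129), a call that was lost without the control array of experiment 1 or the NXF1 siRNA array of experiment 2 or 3, at adjusted p from 0.051 to 0.0625.

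**Figure D4:**
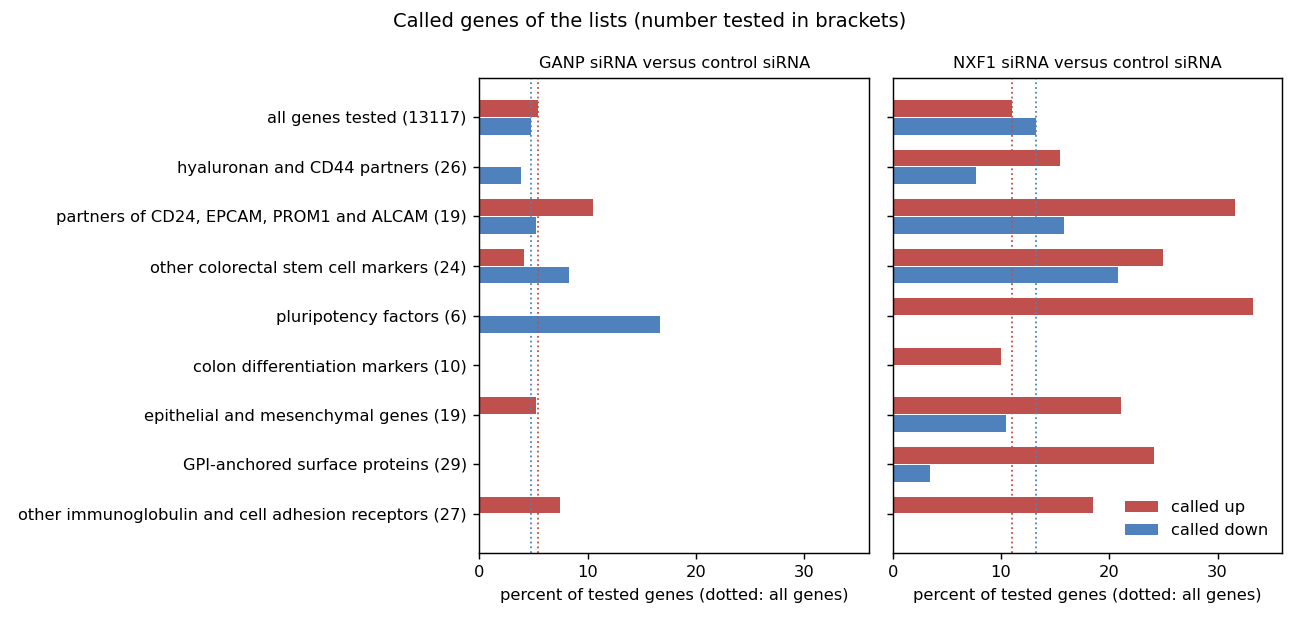
Percent of tested genes called up or down (horizontal axis, from 0) in each gene list (vertical axis, number tested in brackets) and over all 13117 genes tested, after GANP siRNA (left) and NXF1 siRNA (right). Each gene is counted at its brightest kept probe and dotted lines mark the shares over all genes, 5.44% up and 4.76% down after GANP siRNA and 11% up and 13.2% down after NXF1 siRNA. Of 29 GPI-anchored surface proteins 7 rose and 1 fell after NXF1 siRNA, and of 27 adhesion receptors 5 rose and 0 fell.

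Of 7 listed RNAs that are normally held in the nucleus, 4 were on the array and 3 were above the filter, of which 1 rose after GANP siRNA, 2 rose after NXF1 siRNA and 0 fell after either. Over all genes tested, 5.44% rose after GANP siRNA and 11% after NXF1 siRNA, and 3 genes are too few to set against these shares. RN7SK, a nuclear RNA that binds a transcription elongation factor, read 9.92, 9.58 and 9.29 with control siRNA, 11.02, 10.55 and 10.59 with GANP siRNA and 12.13, 12.27 and 11.93 with NXF1 siRNA. It rose by 1.12 and 2.51 (SE 0.157 each, limma adjusted p = 0.000812 and 1.21e-06). RPPH1, the RNA of ribonuclease P, had a value of -0.31 after GANP siRNA (adjusted p = 0.14) and rose by 0.47 after NXF1 siRNA (adjusted p = 0.0129), a call lost without the control array of experiment 2 or the NXF1 siRNA array of experiment 3, at adjusted p of 0.0711 and 0.0628. TUG1, a long noncoding RNA, had values of -0.15 and -0.31 (adjusted p = 0.485 and 0.056). MALAT1, which the study measured by qPCR to check its fractionation, was on the array but below the filter. The summed deposited signal of the 4 genes was 3208 to 3496, 3623 to 4290 and 6341 to 7280 on the control, GANP siRNA and NXF1 siRNA arrays. This linear sum is weighted to the brightest RNAs, of which RN7SK rose and TUG1 did not, so it does not show a rise of the list. RN7SK, the only one of the 3 that was called after both depletions, ran opposite to CD24 and to the CD44 probes that fell, whereas RPPH1 and TUG1 did not follow it in both comparisons. The part of these RNAs in the CD24 and CD44 values was not tested.

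The genes whose signal over the 9 arrays was most like that of each of the 5 genes were found by Pearson r among 13116 others, at the brightest probe of each. The 3 groups and the 3 experiments are shared by all points. A high r can therefore reflect a shared order of groups or shared deviations of single experiments or arrays. For CD24 these were ANAPC13, RNF123, FBXO15, AK3 and SRP9, with r from 0.987 to 0.991. SRP9, a subunit of the signal recognition particle that sends secreted and membrane proteins to the endoplasmic reticulum, had log2 fold changes of -0.20 after GANP siRNA and -0.72 after NXF1 siRNA. For CD44 they were GLRX5, IMP3, TIMELESS, PACSIN3 and CGNL1, with r from 0.978 to 0.982, and TIMELESS, a replication fork protein, had values of -0.42 and -0.67.

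For EPCAM the most similar genes were FUCA2, TMEM43, EREG, EXT2 and HM13, with r from 0.973 to 0.978. EREG, the EGF receptor ligand epiregulin, had log2 fold changes of 0.17 after GANP siRNA and 0.83 after NXF1 siRNA. For PROM1 they were PDIA4, TMBIM6, SLC15A4, RNF149 and CCL5, with r from 0.959 to 0.969. For ALCAM they were CD9, PRSS53, SEPTIN7, SYVN1 and SNW1, with r from 0.947 to 0.974, and CD9, a tetraspanin that binds surface adhesion proteins, had values of 0.20 and 0.55. Among the 5 genes themselves, at their brightest probes, CD24 and CD44 had an r of 0.907, CD24 and EPCAM of -0.94, EPCAM and PROM1 of 0.868, and PROM1 and ALCAM of 0.771. CD24 and CD44 were both chosen for falls on these NXF1 siRNA arrays, so a high r between them follows from that choice. With the brightest CD24 probe, CD44 probes ILMN_2348788 and ILMN_1778625 had r of 0.858 and 0.494. EPCAM probe ILMN_2160209 had r of 0.0531 with that CD24 probe and 0.263 with PROM1.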

How the data were processed

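Cytoplasmic RNA of HCT116 cells, 72 h after transfection, was measured on 9 Illumina arrays, 3 per siRNA, grouped by the labels. The authors quantile normalised the intensity values and used lumi and limma per the methods (versions not given in the sources used here), and the deposited table holds linear intensity of 48803 probes with array medians of 95.24 to 95.32. A second deposited table holds unnormalised signals with detection p-values in 18 columns. Their names give a slide and position that no label pairs with a sample, so the table was not used and slide could not be tested as a batch. The array annotation gave 1 gene symbol for 27578 probes, several for 13 and none for 21212. The annotation gives no genome build, so no coordinates are printed.

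Intensities were background corrected by normexp (offset 50), put on the log2 scale without a second normalisation, filtered at the median mean signal of 6.36 and fitted with limma 3.58.1 in R 4.3.3 (lmFit and eBayes, 3 groups, 6 residual and 7.41 prior degrees of freedom). P-values were adjusted by Benjamini-Hochberg over 24401 probes. In lists, each gene was counted at its brightest kept probe. The number of arrays limits the precision, and depth has no meaning here. The fit was tested on simulated data.

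The 5 genes and the 13 gene lists were chosen with earlier results of these data known. All probes of the 5 genes, up to 4 called genes per list and comparison with the largest change, and the 5 genes most similar to each of the 5 were eligible to be named, beside the targeted genes, and a few other list genes were named after their values were seen.

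Arrays with the same experiment number deviated together from their group means, with r from 0.107 to 0.424 in 9 pairs against -0.365 to 0.0863 in the 18 other pairs, and the methods name independent depletion experiments, so the numbers were taken to pair the arrays. The fit without the block was kept as the main one and the replicate block was an alternative. Other alternatives were no background correction, an offset of 16, a second quantile normalisation, no filter, an intensity trend, fits of 2 groups at a time, 1 probe per gene, no fold threshold, an adjusted p under 0.01 and leaving out each array.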

Additional observations from a re-analysis of the deposited data

How the results depend on the processing

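Every reversal was of a difference that was called neither before nor after it, on leaving out 1 array. Over these alternatives the log2 differences after GANP siRNA ran from -0.0235 to 0.219 (EPCAM ILMN_2160210), -0.0768 to 0.141 (PROM1) and -0.0389 to 0.326 (ALCAM), each negative without the GANP siRNA array of experiment 3 only. EPCAM probe ILMN_2160209 ran from -0.174 to 0.0163 after GANP siRNA, turning without the GANP siRNA array of experiment 1. It ran from -0.0969 to 0.114 after NXF1 siRNA, turning without the control array of experiment 1 or 2 or the NXF1 siRNA array of experiment 2, and from -0.196 to 0.0146 between the depletions, turning without the GANP siRNA array of experiment 1 or the NXF1 siRNA array of experiment 2. The CD44 falls after GANP siRNA were called in every alternative, with adjusted p from 0.000377 to 0.0136 (ILMN_1803429) and 0.00461 to 0.0492 (ILMN_2348788), and so was the EPCAM rise after NXF1 siRNA (0.000262 to 0.0104). CD24 probe ILMN_2060413 after GANP siRNA had adjusted p from 0.00242 to 0.216 and was also called without background correction (0.0444), with an intensity trend (0.0344), with 1 probe per gene (0.0472), and without the GANP siRNA (0.0205) or the NXF1 siRNA array of experiment 2 (0.0479). These fits of CD24 and CD44 used control arrays that also entered the contrast that chose both genes. ALCAM after NXF1 siRNA ranged from 0.00746 to 0.368 and was called without the GANP siRNA array of experiment 1 (0.048). The replicate block called 1656 probes up and 1609 down after GANP siRNA, against 1015 and 953, and 2 of the 4 tested probes after NXF1 siRNA, against 1, and it changed no other call of the 9 probes beside CD24 and ALCAM. At an adjusted p under 0.01, 403 probes rose and 407 fell after GANP siRNA, 1284 rose and 1562 fell after NXF1 siRNA, and 997 were higher and 629 lower with GANP than with NXF1 siRNA. Leaving out 1 array gave 567 to 1093 probes up and 498 to 1077 down after GANP siRNA, with the lowest counts without the control array of experiment 2. It gave 1594 to 2269 up and 1834 to 2511 down after NXF1 siRNA, and 1221 to 1914 higher and 871 to 1526 lower between the depletions. The called probes of the 5 genes numbered 2 to 3, 1 to 2 and 1 to 2 in these comparisons. Of 69 named results of list genes, 49 kept their call in every alternative and 0 reversed. Low signals, as of ILMN_1778625, ILMN_2160209, PROM2, SNAI2 and, on the NXF1 siRNA arrays, ILMN_1805519, limit what their probes can show.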
